A study of Mus musculus with 4 samples.

Results

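The genes described here encode, with a few assembly factors and related proteins, the subunits of the mitochondrial respiratory chain and ATP synthase that are made from nuclear DNA, in mouse Müller glial cells in which *Rax*, a homeobox gene, was deleted or kept. They were chosen by symbol alone: symbols starting with Nduf (complex I), Sdh followed by a to d (complex II), Uqcr (complex III), Cox4 to Cox8 (complex IV) or Atp5 (complex V). Of the 24322 gene symbols in the files, 92 met this rule, with 45 in complex I, 4 in complex II, 8 in complex III, 18 in complex IV and 17 in complex V. The rule itself reads symbols and no expression value. Exons of 28 of the 92 overlap another gene on the opposite strand, and exons of 5 of the 92 overlap one on the same strand. Many of the 92 also have near-identical pseudogenes, and values are uncertain wherever reads are shared. The 2 control mice, numbered 7984 and 3911, carried 1 floxed *Rax* allele (Raxflox/WT). The 2 *Rax* iCKO mice were numbered 7983 and 3914 and had both alleles floxed (Raxflox/flox). Both groups also carried Rlbp1-CreERT2 and the reporter R26-CAG-LoxP-mTFP1, and both received tamoxifen, at postnatal day 4 by the study's methods, and retinas were taken at postnatal day 14 from mice whose strain is labelled 129S6. A promoter fragment of *Rlbp1*, a gene of Müller glia and pigment epithelium, drives the tamoxifen-dependent Cre. This Cre can switch on mTFP1 and delete floxed *Rax* in the same cells, and control cells keep 1 intact *Rax* allele. The study allows that *Rax* may not have been deleted in every Müller glial cell. Sorted mTFP-positive cells of 1 mouse gave 1 RNA-seq library.

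The respiratory chain passes electrons from NADH (complex I) and succinate (complex II) through ubiquinone, complex III and cytochrome c to oxygen at complex IV, and complex V uses the proton gradient so built to make ATP. Most subunits are encoded in the nucleus and a few in mitochondrial DNA, and the nuclear genes tend to be expressed together under factors such as NRF1, GABPA and the PGC-1 coactivators. In the retina, photoreceptors hold dense mitochondria, while Müller glia are known for a largely glycolytic metabolism. Some subunits come in isoforms from separate genes, among them *Cox4i2*, *Cox7a1* and *Ndufa4l2*, whose use depends on tissue and oxygen supply.

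The values are FPKM, reads per kilobase of exon, scaled to the mapped reads of a library, and their sums per library ran from 492728 to 616277. The relative depth of the libraries, read from the whole-read steps of low values, was 1.349 for control 7984 and between 0.983 and 1 for the others. *Rax* was at 189 and 181 FPKM in control 7984 and 3911, against 111 and 98.4 FPKM in *Rax* iCKO 7983 and 3914, a value over the whole gene that does not separate deleted from kept exons. All 10 Müller glial markers were at or above 1 FPKM on average. They summed to 14800 and 11167 FPKM in control 7984 and 3911 and to 10085 and 10157 FPKM in *Rax* iCKO 7983 and 3914. By this sum the groups did not overlap. Of the 10 markers, 3 (*Rlbp1*, *Apoe* and *Vim*) were lower in 7983 and 3914 than in either control, against 14.1% of all tested genes. Markers of other retinal cells were also present, and their values stand beside the results below. The correlation of log2(FPKM + 1) across tested genes was 0.970 for 7983 with 7984 and 0.970 for 3911 with 3914, against 0.952 between the controls and 0.955 between the *Rax* iCKO libraries. The labels do not say what a run of mouse numbers is, so the main differences are also given within 7983 against 7984 and within 3914 against 3911.

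The respiratory chain genes were among the most abundant RNAs of these cells. Of the 92 genes, 72 had a mean over 100 FPKM, and 16 were among the 100 genes with the highest mean FPKM of the files. Together they took 4.77% and 6.58% of the summed FPKM of control 7984 and 3911 and 4.90% and 5.81% of *Rax* iCKO 7983 and 3914. The share was thus highest in control 3911, next in *Rax* iCKO 3914 and lowest in the other two, and the groups overlapped. Another 3 genes had a mean under 1 FPKM. *Cox7b2* and *Cox8c*, isoforms known from testis, were listed at 0 in all 4 libraries. *Cox6a2*, the heart and muscle isoform, was at 0.172 FPKM in control 7984 and was listed at 0 in the others.

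*Atp5b*, the catalytic beta subunit of ATP synthase, had the highest level, with 1046 and 1428 FPKM in control 7984 and 3911 and 1083 and 1404 FPKM in *Rax* iCKO 7983 and 3914. In complex I the highest was *Ndufa4*, whose protein is now assigned to complex IV, at 820 and 1491 FPKM in control and 877 and 1122 FPKM in *Rax* iCKO. *Cox4i1*, the common isoform of complex IV subunit 4, was at 793 and 1514 FPKM in control and 739 and 1118 FPKM in *Rax* iCKO. In these 3 genes the second mouse of each group, 3911 or 3914, was the higher, and the groups overlapped. *Uqcr11*, a small subunit and the highest gene of complex III, was at 951 and 1053 FPKM in control and 799 and 881 FPKM in *Rax* iCKO. Complex II was lower: its highest gene, *Sdhb*, the iron-sulfur subunit, had a mean of 227 ± 59.5 FPKM (SD, n = 2) in control and 200.3 ± 31.9 FPKM (SD, n = 2) in *Rax* iCKO. The neighbours *Sdhb*, *Sdha* (the flavoprotein, 212 ± 1.37 FPKM in control) and *Sdhd* (a membrane anchor, 212 ± 66.2 FPKM in control) did not differ beyond their spread, and *Sdhc*, the other anchor, was at 99.7 ± 22.3 FPKM in control. The 7 assembly factors of complex I (*Ndufaf1* to *Ndufaf7*), which help build the complex without being part of it, had means from 6.78 to 50.1 FPKM, below the 76.9 FPKM of the lowest core subunit, *Ndufs1*.

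The comparison of *Rax* iCKO with control asks whether loss of *Rax* in Müller glia changes the RNA of the respiratory chain. With limma (gene-wise linear models that share the spread between genes), run on log2(FPKM + 1) for the 12363 genes with a mean of at least 1 FPKM and with Benjamini-Hochberg adjustment, 0 of the 89 respiratory chain genes tested had an adjusted p under 0.05. In all genes 0.0162% were lower and 0.00809% higher at that threshold. Before adjustment, 2 of the 89 had a limma p under 0.05, *Cox4i2* and *Cox7a1*, both lower, against 1.60% of all genes lower and 1.26% higher. They are 2.25% of the 89, a share close to that of all genes. The *Rax* iCKO libraries were each below either control for 10 of the 89 genes (11.2%) and above both for 0, while all tested genes gave 14.1% and 15.4%. A two-sided exact permutation test with 2 mice against 2 cannot give a p below 0.3333.

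The log2 fold change had a negative sign in 79 of the 89 genes (88.8%), against 50.8% of all genes, and a positive one in 10, against 49.2%. Its median was -0.19, against -0.00 over all genes. This median rested on 2 libraries, control 3911 and *Rax* iCKO 7983. Without control 3911, 19 values were negative and 70 positive, with a median of 0.13. Without *Rax* iCKO 7983, 40 were negative and 48 positive, with a median of 0.02. The median was -0.53 without control 7984 and -0.41 without *Rax* iCKO 3914. The median deviation of the 89 genes from their mean over the 4 libraries was -0.23 in control 7984, 0.41 in control 3911, -0.29 in *Rax* iCKO 7983 and 0.11 in *Rax* iCKO 3914. The controls stood farther apart than the genotypes. Control 3911 was higher than control 7984 in 86 of the 89 genes, by a median of 0.64 on the log2(FPKM + 1) scale, and *Rax* iCKO 3914 was higher than 7983 in 84, by a median of 0.39. Over all tested genes these medians were -0.005 and 0.02. Among markers of other cells, *Pcp2* of rod bipolar cells was also higher in 3911 and 3914 than in 7984 and 7983, with 2071 and 6515 FPKM in control 7984 and 3911 and 2727 and 4846 FPKM in *Rax* iCKO 7983 and 3914. The 7 bipolar cell markers summed to 2990 and 7843 FPKM in control and 4090 and 6453 FPKM in *Rax* iCKO, mostly from *Pcp2*. The other 6 summed to 919 and 1328 FPKM in control and 1363 and 1606 FPKM in *Rax* iCKO, so that without *Pcp2* control 3911 was not the highest, and 4 of them (*Grm6*, *Trpm1*, *Prkca* and *Otx2*) were higher in 7983 and 3914 than in either control, against 15.4% of all tested genes. The 10 rod markers, described further below, summed to 1809 and 1742 FPKM in control and 1196 and 1013 FPKM in *Rax* iCKO. The part of bipolar cells and rods in the levels of the respiratory chain genes was not tested. In such bulk libraries fewer cells of a type and less RNA per cell cannot be told apart.

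**Figure D1:**
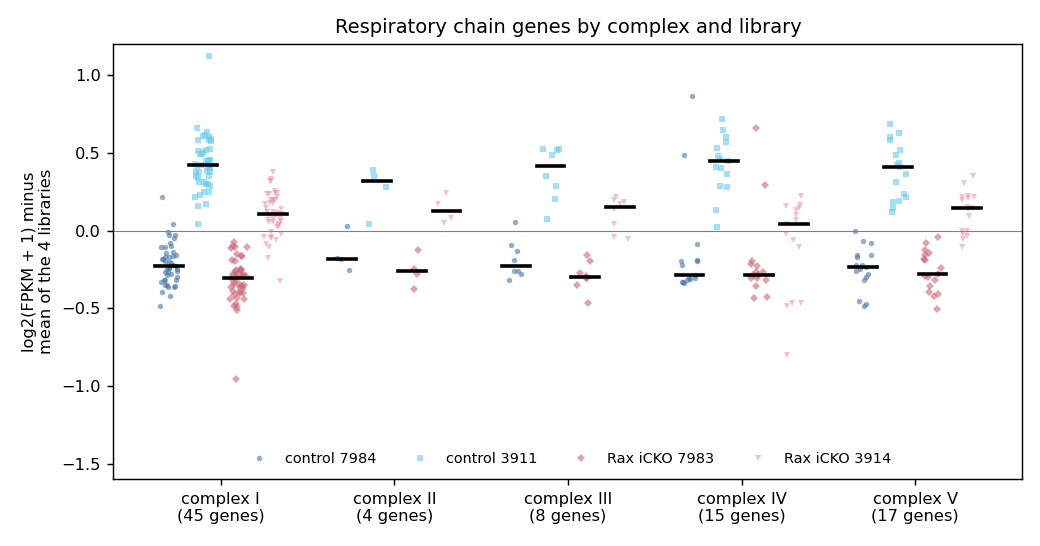
Each point is 1 of the 89 tested respiratory chain genes in 1 library, as log2(FPKM + 1) minus its mean over the 4 libraries (y axis), by complex (x axis), and black bars are medians. Control 3911 stands highest in every complex (median deviation 0.41 over all 89 genes), *Rax* iCKO 3914 second, and control 7984 and *Rax* iCKO 7983 lie together below 0.

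Within the runs of mouse numbers the median difference, *Rax* iCKO minus control, was -0.07 between 7983 and 7984 and -0.32 between 3914 and 3911. The value was negative within both runs for 58 genes (65.2%), against 31.7% of all genes, and positive within both for 5, against 30.7% of all genes. These were *Atp5a1*, *Atp5g3*, *Atp5sl*, *Ndufaf7* and *Ndufv1*, named after their values were seen. The scale also mattered. Scaled to equal FPKM sums, which moved the median of all genes to 0.11, the median of the 89 was -0.06, or -0.17 relative to all genes, and 61 of the 89 were negative and 28 positive. After quantile normalization the median was -0.03, with 51 negative and 38 positive.

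**Figure D2:**
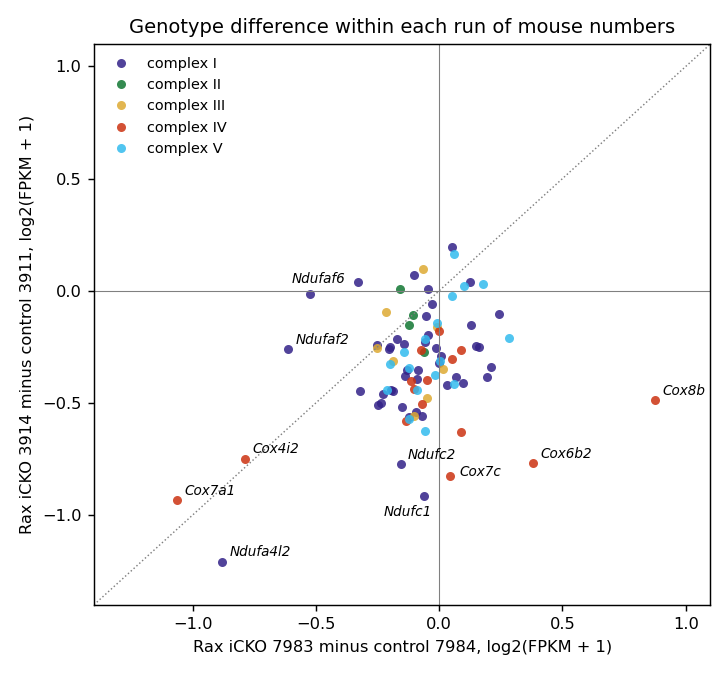
Difference in log2(FPKM + 1), *Rax* iCKO minus control, for the 89 genes within mice 7983 and 7984 (x axis) and within mice 3914 and 3911 (y axis), coloured by complex, with a dotted line of equal difference. Most genes lie near 0 on the x axis and below 0 on the y axis (medians -0.07 and -0.32), whereas *Cox4i2*, *Cox7a1* and *Ndufa4l2* lie low on both.

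Complex I oxidizes NADH and is the largest of the complexes. Its 45 genes had a summed level of 9379 and 15205 FPKM in control 7984 and 3911 and 8828 and 11708 FPKM in *Rax* iCKO 7983 and 3914, a ratio of group means of 0.835. The groups overlapped, since *Rax* iCKO 3914 lay above control 7984. The ratio was 1.09 without control 3911, 0.965 after quantile normalization and 0.926 at equal sums. The median log2 fold change was -0.04 for the 7 core subunits, which carry the flavin and iron-sulfur centres or the ubiquinone site, -0.05 for the 7 assembly factors and -0.23 for the 31 other genes. These 31 are mostly accessory subunits, but by symbol they include *Ndufa4* and its paralog *Ndufa4l2*. All 31 had a negative value, from -1.04 (*Ndufa4l2*) to -0.02, whereas after quantile normalization 23 were negative and 8 positive and at equal sums 26 and 5. Without control 3911, 7 of the 31 were negative and 24 positive, and without *Rax* iCKO 7983, 18 and 13. The median of the core subunits became 0.09 in both of these scalings, and that of the assembly factors 0.08 at equal sums. In 6 of the 45 genes the groups did not overlap, all lower in *Rax* iCKO, which is 13.3%, near the 14.1% of all tested genes.

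Apart from *Ndufa4l2*, which is described with the isoforms, these were *Ndufs8*, *Ndufa7*, *Ndufc1*, *Ndufc2* and *Ndufaf2*. *Ndufs8*, a core subunit with iron-sulfur centres, was at 219 and 296 FPKM in control and 175 and 217 FPKM in *Rax* iCKO, with log2 fold change -0.38 (SE 0.27). *Ndufa7*, an accessory subunit, was at 485 and 654 FPKM in control and 409 and 460 FPKM in *Rax* iCKO (log2 fold change -0.38, SE 0.29). In both genes the highest *Rax* iCKO library lay just under the lowest control. *Ndufc1*, an accessory subunit of the membrane arm, was at 464 and 749 FPKM in control and 444 and 396 FPKM in *Rax* iCKO. Its neighbour *Ndufc2* was at 319.9 and 533 FPKM in control and 287 and 312 FPKM in *Rax* iCKO. The difference of both came mainly from the second run, -0.92 and -0.77, against -0.06 and -0.16 in the first. *Ndufaf2*, an assembly factor, was at 21.2 FPKM in both controls and at 13.5 and 17.5 FPKM in *Rax* iCKO (log2 fold change -0.44, SE 0.23), and its exons overlap *B230220B15Rik* on the opposite strand. Without 1 library at a time the value of each of these 5 genes remained negative, between -0.83 and -0.10. The limma p of these 5 genes lay between 0.102 and 0.244 before adjustment and was 0.9999 after it. The core subunits named next overlapped between the groups. *Ndufv1*, the flavoprotein that takes electrons from NADH, was at 117 and 198 FPKM in control and 128 and 203 FPKM in *Rax* iCKO. *Ndufs1*, which carries several iron-sulfur centres, was at 62.5 and 93.1 FPKM in control and 68.4 and 83.7 FPKM in *Rax* iCKO. *Ndufs3*, *Ndufs7* and *Ndufv2* ranged from 112 to 362 FPKM over the 4 libraries. Among the 31 other genes the highest after *Ndufa4* was *Ndufb8*, at 520.2 and 808 FPKM in control and 453 and 678 FPKM in *Rax* iCKO. *Ndufa1* was at 459 and 643 FPKM in control and 462 and 525 FPKM in *Rax* iCKO.

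The summed level of the 4 genes of complex II, which also belongs to the citric acid cycle, was 646 and 857 FPKM in control and 597 and 777 FPKM in *Rax* iCKO, a ratio of means of 0.915, or 1.01 both after quantile normalization and at equal sums. *Sdha* differed least between mice, with 211 and 213 FPKM in control and 189 and 214 FPKM in *Rax* iCKO. The 8 genes of complex III, which passes electrons from ubiquinol to cytochrome c, summed to 3250 and 4785 FPKM in control and 2990 and 3810 FPKM in *Rax* iCKO, a ratio of 0.846, or 1.05 without control 3911 and 1.01 after quantile normalization. *Uqcr11* was the only one whose groups did not overlap (log2 fold change -0.25, SE 0.31, with a limma p of 0.444 before and 0.9999 after adjustment), and this value turned to 0.03 after quantile normalization. *Uqcrq*, *Uqcrb* and *Uqcr10*, small subunits next in level, ranged from 397 to 912 FPKM and overlapped. *Uqcrc1*, a core protein of complex III, was at 228 and 256 FPKM in control and 217 and 273 FPKM in *Rax* iCKO.

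The 18 genes of complex IV, cytochrome c oxidase, summed to 5307 and 9081 FPKM in control and 5154 and 6697 FPKM in *Rax* iCKO (ratio 0.824, or 1.12 without control 3911, 0.957 after quantile normalization and 0.916 at equal sums). Of the 15 tested, 14 had a negative log2 fold change, against 10 after quantile normalization, 11 at equal sums and 3 without control 3911, and the exception was *Cox8b*, a muscle isoform near the limit of detection. Without *Rax* iCKO 7983, 8 were negative and 6 positive. *Cox8a*, the common partner of *Cox8b*, was at 789 and 1308 FPKM in control and 840.3 and 1090 FPKM in *Rax* iCKO. *Cox6b1* and *Cox6c* ranged from 679 to 1245 FPKM. The 17 genes of complex V, ATP synthase, summed to 6678 and 10636 FPKM in control and 6562 and 8885 FPKM in *Rax* iCKO (ratio 0.892, or 1.16 without control 3911 and 1.06 after quantile normalization). *Atp5a1*, the alpha subunit that pairs with *Atp5b* in the catalytic head, was at 314 and 442 FPKM in control and 328 and 494 FPKM in *Rax* iCKO. *Atp5d*, the delta subunit of the F1 stalk, was the only gene of complex V whose groups did not overlap, with 297 and 351 FPKM in control and 272 and 276 FPKM in *Rax* iCKO (log2 fold change -0.23, SE 0.24, with a limma p of 0.375 before and 0.9999 after adjustment). The value was -0.11 without control 3911, -0.08 after quantile normalization and -0.10 at equal sums. Its exons overlap *Cbarp* on the opposite strand. *Atp5h* and *Atp5l*, subunits of the stator and membrane part, ranged from 534 to 1062 FPKM and overlapped. *Atp5s* and *Atp5sl*, which carry the name but are not counted as subunits, were at 15.03 to 19.8 FPKM in the 4 libraries.

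**Figure D3:**
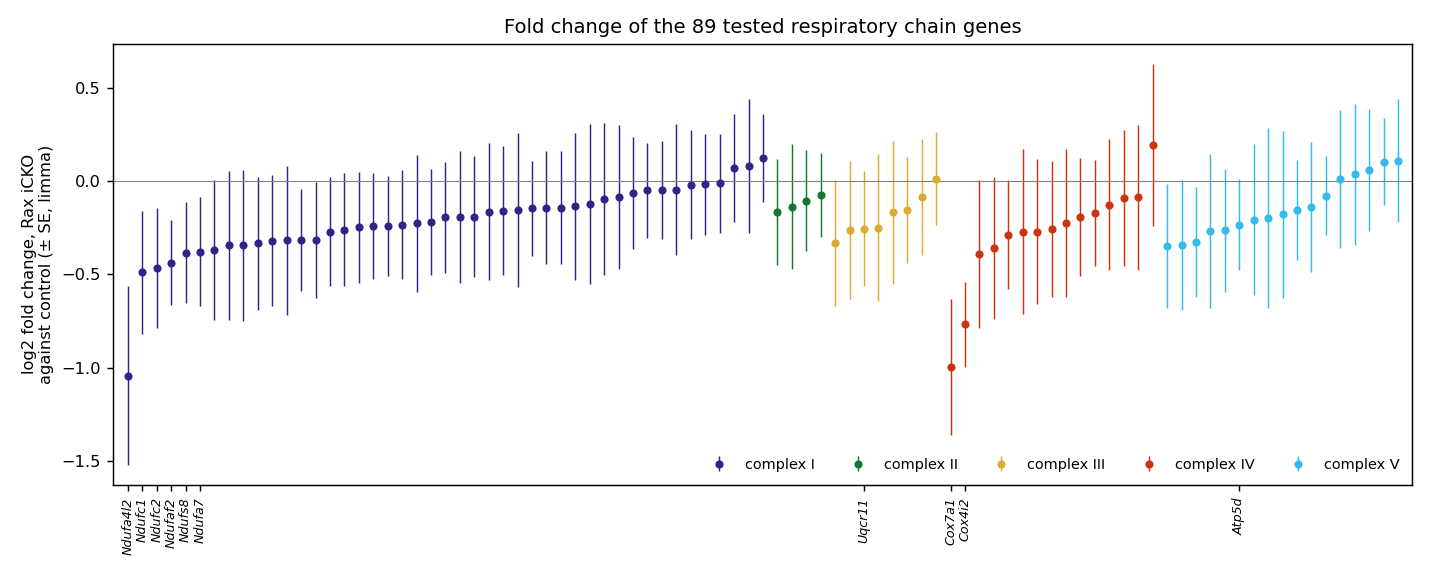
Log2 fold change, *Rax* iCKO against control, with its standard error from limma (y axis), for the 89 tested genes ordered within each complex (x axis), with names for the 10 genes whose groups did not overlap. *Ndufa4l2* (-1.04), *Cox7a1* (-0.998) and *Cox4i2* (-0.77) lie lowest, and 10 genes have a value above 0.

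The 3 lowest log2 fold changes of the 89 belonged to isoform genes, and *Cox4i2* and *Cox7a1* did not follow the mouse-to-mouse pattern of the other subunits. *Cox4i2*, the isoform of subunit 4 known from lung and from low oxygen (GRCm38, chromosome 2, 152753916 to 152765039), was at 250.2 and 218 FPKM in control 7984 and 3911, against 144 and 129 FPKM in *Rax* iCKO 7983 and 3914. Both *Rax* iCKO libraries were well below both controls, and 3911 was here lower than 7984. The means were 234 ± 23.0 FPKM (SD, n = 2) in control and 137 ± 10.9 FPKM (SD, n = 2) in *Rax* iCKO. Their ratio was 0.585 and the distance between the means exceeded both SDs (p = 0.3333, two-sided exact permutation test). Its log2 fold change was -0.77 (SE 0.23), with a limma p of 0.0144 before and 0.9999 after adjustment over all genes. The difference was -0.79 within 7983 and 7984 and -0.75 within 3914 and 3911, and without 1 library at a time it stayed between -0.87 and -0.67, with an unadjusted limma p under 0.05 only without control 3911. The common isoform *Cox4i1*, with the values given above, overlapped between the groups. As a share of the FPKM of both isoforms, a ratio within a library, *Cox4i2* made up 24.0% and 12.6% in control, against 16.4% and 10.3% in *Rax* iCKO, so that by this measure the groups overlapped.

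*Cox7a1*, the heart and muscle isoform of subunit 7a (GRCm38, chromosome 7, 30184171 to 30186030, plus strand), was at 10.5 and 5.89 FPKM in control 7984 and 3911, against 4.50 and 2.61 FPKM in *Rax* iCKO 7983 and 3914. The smallest whole read numbers that these values fit, within 0.05 reads, were 22, 9, 7 and 4. The log2 fold change was -0.998 (SE 0.37), with a limma p of 0.0341 before and 0.9999 after adjustment. The difference was -1.06 in the first run and -0.93 in the second. The value was -0.63 without control 7984, -1.37 without control 3911, -1.30 without *Rax* iCKO 7983 and -0.69 without *Rax* iCKO 3914. Its common partner *Cox7a2* was at 226 and 434 FPKM in control and 206 and 290.0 FPKM in *Rax* iCKO, which overlap. *Cox7a1* made up 2.94% and 0.954% of the FPKM of *Cox7a1*, *Cox7a2* and *Cox7a2l* in control, against 1.39% and 0.593% in *Rax* iCKO, and this share also overlapped between the groups. Its limma p before adjustment was 0.151 without control 7984, 0.171 without *Rax* iCKO 3914, 0.112 without a filter, 0.0504 with a mean of at least 5 FPKM and 0.0968 at equal sums.

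*Ndufa4l2*, a paralog of *Ndufa4* known to rise in low oxygen and to restrain complex I (GRCm38, chromosome 10, 127509274 to 127517154), was at 9.78 and 23.7 FPKM in control 7984 and 3911, against 4.86 and 9.71 FPKM in *Rax* iCKO 7983 and 3914. The groups were only just separate, as 9.71 FPKM in *Rax* iCKO 3914 lay next to 9.78 FPKM in control 7984. The log2 fold change was -1.04 (SE 0.48), with a limma p of 0.0716 before and 0.9999 after adjustment, and it was -0.44 without control 3911 and -1.64 without control 7984. Within the runs it was -0.88 and -1.21. In its share of the FPKM of *Ndufa4* and *Ndufa4l2* the groups were separate, with 1.18% and 1.57% in control, against 0.551% and 0.858% in *Rax* iCKO. Its exons overlap *Shmt2* on the opposite strand, which was at 45.7 and 41.0 FPKM in control and 32.1 and 30.7 FPKM in *Rax* iCKO. The use of strand in the FPKM step is not given in the sources used here, so reads of the overlapping exons cannot be told apart.

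*Cox4i2* and *Ndufa4l2* are also known from pericytes, the mural cells of capillaries, so vessel markers were read beside them. The 4 endothelial markers summed to 465 and 230.1 FPKM in control and 386 and 242 FPKM in *Rax* iCKO, nearly all from *Kdr*, since *Pecam1*, *Cldn5* and *Cdh5* reached at most 1.77 FPKM. At these low levels *Cldn5* and *Cdh5*, 2 of the 4, were lower in both *Rax* iCKO libraries than in either control, against 14.1% of all tested genes. *Kdr* and *Pecam1* overlapped between the groups. A list of 11 mural cell markers was added after the values of *Cox4i2* were seen. They summed to 47.1 and 26.3 FPKM in control and 38.7 and 29.1 FPKM in *Rax* iCKO. Most of this came from *Pdgfrb* (24.7 and 10.3 FPKM in control, 21.5 and 11.8 FPKM in *Rax* iCKO) and *Vtn* (17.4 and 14.5 FPKM against 12.4 and 14.7 FPKM). The others reached at most 2.04 FPKM, with *Rgs5* at 0.534 to 1.65 FPKM and *Anpep* listed at 0 in all. The endothelial and the mural sum were each highest in control 7984 and second in *Rax* iCKO 7983, so by these sums the groups overlapped. The part of vessel cells in the values of *Cox4i2* and *Ndufa4l2* was not tested.

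**Figure D4:**
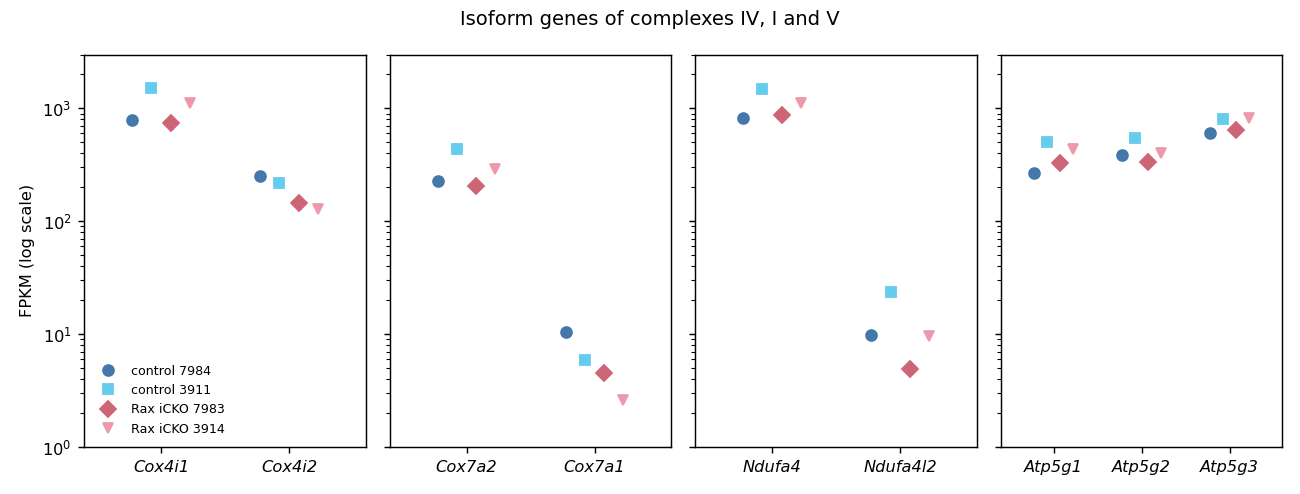
FPKM on a log axis (y axis) of isoform genes (x axis) in each of the 4 libraries. *Cox4i2*, *Cox7a1* and *Ndufa4l2* are lower in 7983 and 3914 than in either control, whereas *Cox4i1*, *Cox7a2*, *Ndufa4* and the 3 *Atp5g* genes overlap.

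The c-ring of ATP synthase is encoded by *Atp5g1*, *Atp5g2* and *Atp5g3*, which are known to give the same mature protein behind different import sequences. *Atp5g3* made up 47.9% and 43.7% of their summed FPKM in control 7984 and 3911 and 49.5% and 49.8% in *Rax* iCKO 7983 and 3914. *Atp5g2* made up 30.8% and 29.3% in control, against 25.6% and 24.1% in *Rax* iCKO, and *Atp5g1* the rest. The share of *Atp5g2* was lower and that of *Atp5g3* higher in 7983 and 3914 than in either control, a measure chosen after the values were seen. The FPKM of all 3 overlapped. *Cox6b2*, a testis isoform, was at 21.9 and 28.6 FPKM in control and 28.9 and 16.4 FPKM in *Rax* iCKO. *Cox8b* was at 0.971 and 1.33 FPKM in control and 2.62 and 0.664 FPKM in *Rax* iCKO, for which the smallest fitting read numbers were 2, 2, 4 and 1. Neither gene separated the groups.

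Promoters were searched for motifs of factors known for mitochondrial genes, a property that the choice by symbol did not use. The 280-base windows from 250 bases before to 30 bases after the start of each gene were taken from RefSeq (GRCm38.p6), where 76 of the 92 genes had an entry, and each motif was searched on both strands. NRF1, a regulator of mitochondrial genes, has a palindromic motif, which was found in 18 of the 76 (23.7%), against 11.5% of the genes with a mean of at least 1 FPKM and 4.98% of all genes with an entry. The ETS motif CCGGAAG, which GABPA binds, was found in 17 (22.4%), against 19.4% and 9.48%, and the YY1 motif AAGATGGC in 5 (6.58%), against 4.17% and 2.66%. The SP/KLF motif GGGCGG was found in 33 (43.4%), against 68.8% and 37.3%. The letters TAATT, the core bound by homeodomains such as that of Rax, were found in 9 (11.8%), against 18.4% and 29.0%. A match is only a description of letters.

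The promoters below show an isoform pair and 2 common subunits, with every motif match, on either strand, in capitals: *Cox7a1*, which was lower in both *Rax* iCKO libraries (chr7:30183921-30184200, plus strand), its common partner *Cox7a2* (chr9:79759824-79760103, minus strand), the common complex IV subunit *Cox6a1* (chr5:115348929-115349208, minus strand) and the complex II anchor *Sdhd* (chr9:50603820-50604099, minus strand).
Cox7a1: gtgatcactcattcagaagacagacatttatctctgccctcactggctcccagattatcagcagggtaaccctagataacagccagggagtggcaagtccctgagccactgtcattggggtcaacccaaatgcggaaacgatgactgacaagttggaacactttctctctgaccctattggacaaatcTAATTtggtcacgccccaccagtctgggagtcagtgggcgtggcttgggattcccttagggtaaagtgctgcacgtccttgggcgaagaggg
Cox7a2: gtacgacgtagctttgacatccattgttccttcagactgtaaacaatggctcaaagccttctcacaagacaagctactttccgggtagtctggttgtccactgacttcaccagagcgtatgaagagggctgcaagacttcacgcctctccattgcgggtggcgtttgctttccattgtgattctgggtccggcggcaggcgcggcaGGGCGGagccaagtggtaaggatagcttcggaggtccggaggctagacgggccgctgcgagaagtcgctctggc
Cox6a1: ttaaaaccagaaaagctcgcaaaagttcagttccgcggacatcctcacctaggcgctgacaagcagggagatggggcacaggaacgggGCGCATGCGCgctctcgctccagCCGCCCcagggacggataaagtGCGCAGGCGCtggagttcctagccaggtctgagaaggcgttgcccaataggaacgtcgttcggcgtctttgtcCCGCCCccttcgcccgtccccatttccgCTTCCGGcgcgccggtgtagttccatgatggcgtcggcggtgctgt
Sdhd: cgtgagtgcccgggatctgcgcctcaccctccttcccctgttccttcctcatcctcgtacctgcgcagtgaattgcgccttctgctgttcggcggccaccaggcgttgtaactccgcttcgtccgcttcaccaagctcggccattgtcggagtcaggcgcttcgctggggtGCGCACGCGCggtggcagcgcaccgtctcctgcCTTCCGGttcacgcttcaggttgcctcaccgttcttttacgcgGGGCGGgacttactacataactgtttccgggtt
The window of *Cox7a1* held 1 match, TAATT at position -62 counted from the start, and that of *Cox7a2* 1 match, GGGCGG at -44. *Cox6a1* held 2 NRF1 matches, at -162 and -117, along with 1 ETS and 2 SP/KLF matches. *Sdhd* held 1 NRF1 match at -79, 1 ETS and 1 SP/KLF match. CpG, the dinucleotide dense in promoters of widely used genes, was at 0.315 of the number expected from the C and G content in *Cox7a1* and at 0.814, 1.06 and 1.08 in *Cox7a2*, *Cox6a1* and *Sdhd*. *Cox4i1*, *Cox4i2* and *Ndufa4l2* were without an entry in the table used.

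Other genes of the same pathway were set beside the chain as lists. For each of the 8 lists limma gave 0 genes with an adjusted p under 0.05. Of 40 tested assembly and maturation factors such as *Surf1* and *Sco1*, 0 had an unadjusted p under 0.05 either, and their median log2 fold change was -0.04, or 0.09 at equal sums. The 5 tested electron carriers had a median of -0.06, or 0.07 at equal sums, the 13 genes of ubiquinone synthesis 0.03 and the 13 of the citric acid cycle 0.03, with 0 at an unadjusted p under 0.05 in each. *Cycs*, cytochrome c, was at 51.9 and 87.5 FPKM in control and 54.8 and 58.9 FPKM in *Rax* iCKO, and *Cyc1*, cytochrome c1 of complex III, was at 207 and 270.3 FPKM in control and 213 and 288 FPKM in *Rax* iCKO.

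The 77 mitochondrial ribosomal genes had a median log2 fold change of -0.12, or 0.01 at equal sums and 0.15 without control 3911, with 0 at an unadjusted p under 0.05, and the 80 cytosolic ribosomal genes had a median of -0.27, or -0.13 at equal sums, -0.11 after quantile normalization and 0.02 without control 3911, with 2 lower at that threshold (*Rpl26* and *Rpl30*, named after their values were seen) and 0 higher. These are 2.5% of the 80, against 1.60% of all tested genes lower and 1.26% higher. The median deviation by library was again highest in control 3911, with -0.17, 0.48, -0.32 and 0.05 for the cytosolic ribosome in control 7984 and 3911 and *Rax* iCKO 7983 and 3914. Control 3911 was higher than control 7984 in 80 of these 80 genes. All lists share the same 4 libraries, so their medians are not separate evidence.

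**Figure D5:**
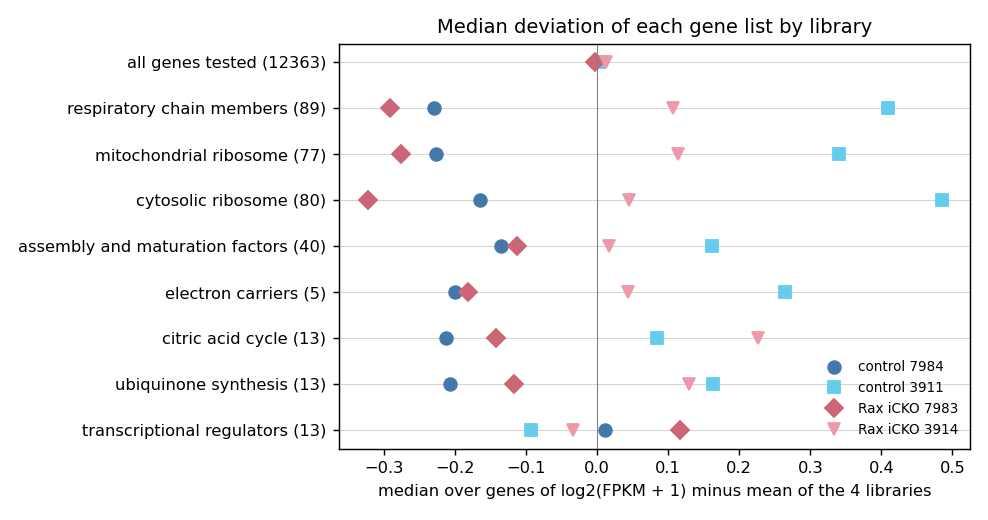
Median over each list's tested genes of log2(FPKM + 1) minus the mean of the 4 libraries (x axis), 1 point for each library, with the number of genes in brackets (y axis). Control 3911 stands at 0.41 for the respiratory chain and 0.48 for the cytosolic ribosome, while the points of all tested genes lie together at 0.

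Among 13 tested transcriptional regulators, 2 had an unadjusted limma p under 0.05, *Esrrg* and *Ppargc1b*, both higher in *Rax* iCKO (named after their values were seen), where all tested genes gave 1.26% higher and 1.60% lower. *Esrrg*, an orphan nuclear receptor that acts on mitochondrial genes, was at 32.98 and 28.6 FPKM in control and 53.9 and 46.9 FPKM in *Rax* iCKO (log2 fold change 0.69, SE 0.21, a limma p of 0.0159 and adjusted p = 0.9999). *Ppargc1b*, a PGC-1 coactivator, was at 4.25 and 3.77 FPKM in control and 9.01 and 5.99 FPKM in *Rax* iCKO (log2 fold change 0.74, SE 0.29, a limma p of 0.0406 and adjusted p = 0.9999). For both genes, 7983 and 3914 lay above the 2 controls. *Esrra*, a regulator of the same list also named after its values were seen, was lower in both *Rax* iCKO libraries. It was at 7.84 and 7.54 FPKM in control and 6.59 and 6.94 FPKM in *Rax* iCKO (log2 fold change -0.16, a limma p of 0.508 before adjustment). Of the 13, 2 were thus separate and higher and 1 lower, against 15.4% and 14.1% of all tested genes. The limma p of *Esrrg* before adjustment was 0.0722 without control 3911, 0.130 without *Rax* iCKO 7983 and 0.0569 without *Rax* iCKO 3914, and that of *Ppargc1b* was 0.0577 without control 7984, 0.103 without control 3911 and 0.295 without *Rax* iCKO 7983. The value of *Ppargc1b* was 0.48 without *Rax* iCKO 7983, and its limma p before adjustment was 0.0746 without a filter, 0.0655 with a mean of at least 5 FPKM and 0.0501 at equal sums. *Nrf1* was at 16.4 and 14.8 FPKM in control and 16.7 and 16.0 FPKM in *Rax* iCKO, *Gabpa* at 9.02 and 9.38 FPKM against 10.4 and 7.96 FPKM, *Tfam*, which maintains mitochondrial DNA, at 8.74 and 13.8 FPKM against 7.52 and 12.5 FPKM, and *Ppargc1a* at 1.60 and 1.46 FPKM against 1.52 and 1.06 FPKM. Each of these 4 overlapped between the groups.

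The oxygen-sensing list, targets of the factors that answer low oxygen, had 7 tested genes with a median log2 fold change of -0.15, or -0.0026 after quantile normalization and -0.02 at equal sums, and 1 at an unadjusted p under 0.05, *Cox4i2*. It holds *Cox4i2* and *Ndufa4l2* themselves, and the median of the other 5 was -0.01. *Vegfa* was at 141 and 59.6 FPKM in control and 134 and 69.4 FPKM in *Rax* iCKO, *Bnip3* at 203 and 278 FPKM against 195 and 234 FPKM, and *Higd1a* at 119 and 158 FPKM against 122 and 153 FPKM. *Ankrd37* was at 48.2 and 124 FPKM against 63.7 and 103 FPKM. *Pdk1*, a kinase that limits entry of pyruvate into mitochondria, was lower in both *Rax* iCKO libraries, with 12.9 and 12.5 FPKM in control and 9.90 and 11.4 FPKM in *Rax* iCKO (log2 fold change -0.24, with a limma p of 0.329 before adjustment). *Egln3* was under 0.5 FPKM in all 4 libraries. No gene of mitochondrial DNA was analysed here.

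Markers of further cell types differed between the libraries. Of the rod markers, 9 of 10 were lower in both *Rax* iCKO libraries, against 14.1% of all tested genes, with a summed level of 1809 and 1742 FPKM in control and 1196 and 1013 FPKM in *Rax* iCKO. The 6 cone markers summed to 104 and 109 FPKM in control and 96.4 and 116 FPKM in *Rax* iCKO, the 8 amacrine and ganglion cell markers to 8.72 to 18.9 FPKM, with *Pou4f1* listed at 0 in all, and the 5 pigment epithelium markers to 2.13 to 4.27 FPKM. The 6 microglial markers summed to 27.7 and 31.2 FPKM in control and 52.4 and 7.82 FPKM in *Rax* iCKO. The part of these cells in the levels of the respiratory chain genes was not tested.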

How the data were processed

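Full-length cDNA libraries of sorted mTFP-positive retinal cells were sequenced as single-end reads of 101 bases, 1 library for each of 4 mice. The authors mapped reads to mm10 and deposited FPKM values per gene. The submitters' processing notes name TopHat2 2.1.1, Bowtie2 2.2.8, SAMtools 0.1.18 and Cuffdiff 2.2.1, the study's methods name other versions, and the annotation and use of strand are not given in the sources used here. The labels and methods also name different RNA kits. FPKM values of a file are scaled to its own reads, so a large change in a few abundant genes moves all others.

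FPKM as deposited was analysed as log2(FPKM + 1), so fold changes of low genes are understated. Genes averaging 1 FPKM or more were fitted with limma 3.58.1 in R 4.3.3 (group only, variance trend, Benjamini-Hochberg adjustment over 12363 genes), checked on simulated data. No count test was run. Whole-read steps were checked for low values alone. Of 1504 genes that stayed below 0.5 FPKM and were above 0 in 3 or more libraries, 92.9% fit whole numbers of at most 30 reads within 0.05 reads, against 19.7% after random noise was added. Each mouse is 1 replicate. Members and lists were chosen with earlier results of these data known. Genes were named by level (the 4 highest of each complex), by p, by separation of the groups, and as isoforms or core subunits, and any other is said to be named after its values were seen; 1 member is not reported singly here. Alternatives were another pseudocount, other filters, equal medians, quantile normalization, a constant variance prior, a block for the run of mouse numbers, leaving out each library, and scaling to equal sums, the last chosen after seeing the data. Positions are from RefSeq on GRCm38, exon overlaps from GENCODE, and promoters from RefSeq on GRCm38.p6.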

Additional observations from a re-analysis of the deposited data

How the results depend on the processing

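With 2 mice in each group, single genes can be called only where the difference is far above the spread, and an adjusted limma p of 0.9999 does not show equal levels. FPKM gave only the relative depth read from the whole-read steps of low values. Total reads per library are not given in the sources used here.

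Blocking for the run of mouse numbers gave 2 members lower at an adjusted limma p under 0.05, *Cox4i2* (0.0266) and *Ndufa4l2* (0.0312). These are also the 2 oxygen-sensing genes called, and 2 cytosolic ribosomal genes were called too. The number of all genes called at an adjusted limma p went from 3 to 71. At an unadjusted limma p under 0.05, the block gave 17 of the 89 members, all lower. It gave 1938 of all 12363 genes in either direction at that threshold. The labels do not say that the numbers pair the mice. The correlation of deviations from the group means was 0.50 for 7983 with 7984, and with 2 mice a group the other pair must give the same value. Without a filter, with a mean of at least 5 FPKM, or at equal sums, 1 member, *Cox4i2*, was lower at an unadjusted p. Quantile normalization left 51 members below 0 and 38 above, and gave *Uqcr11* a log2 fold change of 0.0282. Equal sums left 28 above 0, and a median of 0.19 for transcriptional regulators. Under both scalings some members were higher with groups that did not overlap, where the main scale had 0. The share of all genes under these scalings is not given here, so this is not read as a result about the members. Quantile normalization or equal sums also moved 7 medians across 0 and 4 ratios of summed FPKM across 1. The median became 0.0072 (quantile) and 0.0143 (equal sums) for complex II, 0.0249 (quantile) for V, 0.0881 (equal sums) for assembly factors, 0.0081 and 0.0699 for electron carriers and 0.0107 (equal sums) for the mitochondrial ribosome. The ratio became 1.0143 and 1.0072 for II, 1.0081 (quantile) for III and 1.058 (quantile) for V. Within complex I, the medians of the core subunits and of the assembly factors crossed 0 as well. No other median or ratio of a whole complex or list changed sides under the pseudocount, filters, equal medians, constant prior, block, quantile normalization or equal sums.

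Leaving out 1 library at a time gave 1 to 3 members lower at an unadjusted p, 19 to 87 below 0, 2 to 70 above 0, 10 to 77 not overlapping lower and 0 to 24 not overlapping higher. With 1 library left out, 1 mouse stands against 2, so the groups of any gene overlap less easily. The share of all genes with groups that do not overlap is not given here for these omissions. The counts of members at an unadjusted p or not overlapping are therefore not read as a result about the members. The median ran from -0.53 to 0.13 for all members, -0.54 to 0.12 for complex I, -0.38 to 0.11 for II, -0.48 to 0.11 for III, -0.62 to 0.13 for IV and -0.43 to 0.18 for V. For lists it ran from -0.16 to 0.12 for assembly factors, -0.30 to 0.13 for electron carriers, -0.19 to 0.22 for ubiquinone synthesis, 0.0076 to 0.16 for regulators, -0.17 to 0.27 for the citric acid cycle, -0.44 to 0.15 for the mitochondrial ribosome, -0.60 to 0.02 for the cytosolic ribosome and -0.38 to -0.14 for oxygen-sensing targets. The ratio of summed FPKM ran from 0.675 to 1.09 for complex I, 0.794 to 1.06 for II, 0.710 to 1.05 for III, 0.653 to 1.12 for IV and 0.726 to 1.16 for V.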
